A study of Rattus norvegicus with 14 samples.

Results

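The comparison described here set rats that had carried capsules with testosterone against control rats with empty capsules, and asked which genes of the lateral prostate moved the same way in every testosterone-treated group. All 14 arrays of the series entered it, 10 from treated rats and 4 from controls. The treated groups were testosterone with estradiol (T+E2, 30 mg testosterone and 15 mg estradiol, 4 rats), testosterone with low bisphenol A (T+lowBPA, 30 mg and 15 mg, 3 rats) and testosterone with high bisphenol A (T+highBPA, 30 mg and 320 mg, 3 rats). All were male Noble rats aged 48 weeks, and treated rats had carried the capsules for 32 weeks. The treated groups share testosterone, capsule time, strain and age, and rats with capsules of testosterone as the sole agent were not analysed here. What testosterone did and what its partner compounds have in common therefore cannot be told apart. Each treated group was weighed equally: a difference is the mean of the 3 treated group means minus the control mean, on a log2 scale on which 1 unit is a doubling.

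The lateral prostate is a secretory lobe of the rat accessory sex glands, built of luminal and basal epithelium in a sheath of smooth muscle. Testosterone, and the dihydrotestosterone made from it, maintains the gland and its secretion, and androgen-regulated genes of the lobe include that of the secreted lipocalin probasin (Pbsn). Estradiol acts through the receptors Esr1 and Esr2, and bisphenol A is a plastic monomer with weak estrogenic activity. The Noble rat is used as a model of prostate disease induced by testosterone together with estradiol.

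The lobe label was set beside some of its markers. The level of Pbsn averaged 12.82 ± 0.10 in T+E2, 12.92 ± 0.16 in T+lowBPA, 12.87 ± 0.16 in T+highBPA and 12.53 ± 0.28 in controls (SD, n = 4, 3, 3 and 4), and that of Msmb, which encodes a secreted prostate protein, 12.76, 13.10, 13.10 and 12.86 in the same order. Both lie near the top of the arrays' scale. They do not stand for the whole lateral prostate list of 8 measured genes. Tgm4 was not uniformly high, with 6.84 to 11.96 in treated rats and 11.17 to 12.18 in controls. The list's mean level was 8.70 to 9.38 in treated rats and 9.15 to 9.53 in controls, well below Pbsn and Msmb. The levels of its other members are not given here. Array medians were between 6.38 and 6.46. One control, replicate 4, differed from its group. It correlated with the remaining controls at 0.962 on average, where each of the other arrays reached 0.977 to 0.989 within its group, and T+highBPA replicate 2 was the array most like it. The mean of 10 ventral prostate secretory genes was 9.09 in this control, against 4.94 to 5.20 in the other controls, so counts below are repeated without it near the end.

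Few genes moved in the mean over the treated groups. With limma, 8 of 17802 probe sets (0.0449%) passed a Benjamini-Hochberg adjusted p of 0.05, 7 higher (0.0393%) and 1 lower (0.00562%). All 3 group means lay on the same side of control in 3 of the 8, 2 higher (0.0112%) and 1 lower (0.00562%). The lower one was Gpc3, and it alone among the 8 also had treated and control arrays that did not overlap. At an unadjusted p of 0.05 there were 1136 probe sets (6.38%), 631 higher (3.54%) and 505 lower (2.84%). For scale, T+E2 against the same controls had 535 called probe sets (3.01%), T+lowBPA 5 (0.0281%) and T+highBPA 1 (0.00562%).

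Gpc3 encodes glypican 3, a heparan sulfate proteoglycan anchored to the outer cell membrane that binds Wnt and hedgehog ligands. Its level was 6.84, 6.15, 6.52 and 6.34 in T+E2, 6.66, 6.08 and 6.16 in T+lowBPA and 6.65, 6.70 and 6.46 in T+highBPA, against 7.59, 7.33, 7.51 and 7.09 in controls. Every treated array lay below every control array. The mean over the treated groups fell by 0.93 (95% interval -1.22 to -0.64, adjusted p 0.0247), with differences of -0.92 in T+E2, -1.08 in T+lowBPA and -0.78 in T+highBPA. A moderated F test called no difference among the treated groups (adjusted p 0.511). Taken one group at a time, Gpc3 was called in T+E2 (adjusted p 0.00582) and in neither bisphenol A group (0.0678 in T+lowBPA and 0.32 in T+highBPA).

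The call of Gpc3 rested on several arrays. Its adjusted p was 0.0735, 0.0962 and 0.0841 without control replicates 1, 2 and 3, 0.0582 and 0.0638 without T+lowBPA replicates 2 and 3, and 0.0576 and 0.0657 without T+highBPA replicates 1 and 3. Without control replicate 4 it was 0.00678. The difference stayed between -1.02 and -0.84 over 29 alternative settings, in 22 of which it was called.

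**Figure D1:**
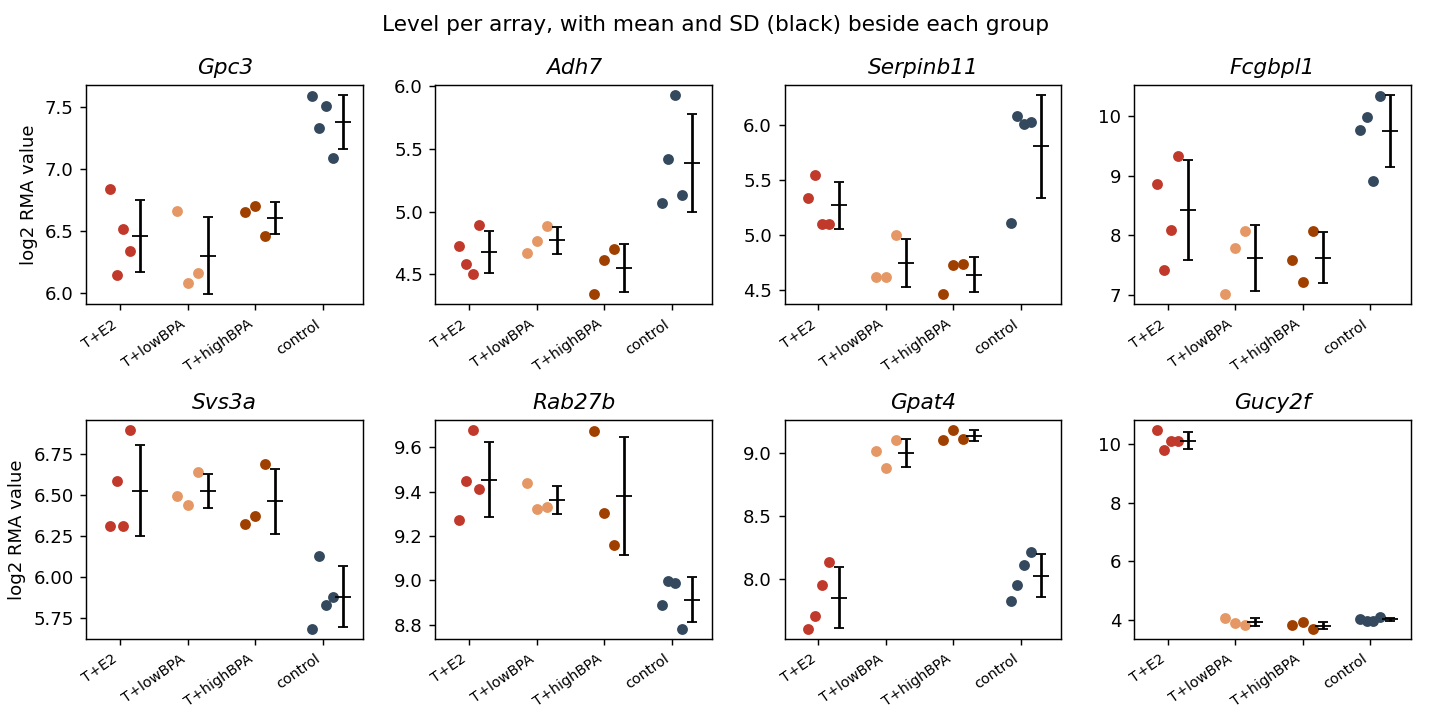
Level of 8 genes on each array (points, log2 RMA value, vertical axes differ), by group from left to right T+E2, T+lowBPA, T+highBPA and control, with mean and SD in black. Gpc3, Adh7, Svs3a and Rab27b show no overlap between treated and control arrays, whereas Gpat4 is higher in both bisphenol A groups and Gucy2f in T+E2 only, where it averaged 10.12 against 4.03 in controls.

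The other 7 called probe sets were carried by part of the treated rats. Gpat4 encodes an enzyme that adds the first fatty acid to glycerol phosphate. Its level averaged 7.85 ± 0.24 in T+E2, 9.0 ± 0.11 in T+lowBPA and 9.14 ± 0.04 in T+highBPA, against 8.03 ± 0.17 in controls (SD, n = 4, 3, 3 and 4). The bisphenol A groups lay above every control and T+E2 did not, and the mean over the groups was 0.64 above control (adjusted p 0.0386). Gucy2f, a guanylate cyclase known from the retina, was 6.09 above control in T+E2, -0.09 in T+lowBPA and -0.21 in T+highBPA, and the mean was higher by 1.93 (adjusted p 4.88e-07). Syt10, a synaptotagmin, had 4.13, 0.04 and -0.18 in the same order and a mean of 1.33 (adjusted p 9.26e-04).

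Obp2a, an odorant-binding lipocalin, had differences of 2.54, 0.09 and 0.13 and a mean of 0.92 (adjusted p 0.0386), so it counts among the 3 probe sets with all group means on one side although it was called against control in T+E2 only. The olfactory receptor gene Or51k1 and 2 probe sets without a symbol were likewise high in T+E2 alone, with group differences between 2.26 and 6.35 there and between -0.23 and 0.12 in the bisphenol A groups. With 1 array left out, Gpat4 was called in 4 of 14 fits (adjusted p 0.0124 to 0.17) and Obp2a in 5 of 14 (0.00209 to 0.151), while Gucy2f and Syt10 were called in all 14. A difference among the treated groups was called by the F test in 7 of the 8 probe sets, all but Gpc3. Over the whole table that test called 1182 probe sets (6.64%).

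**Figure D2:**
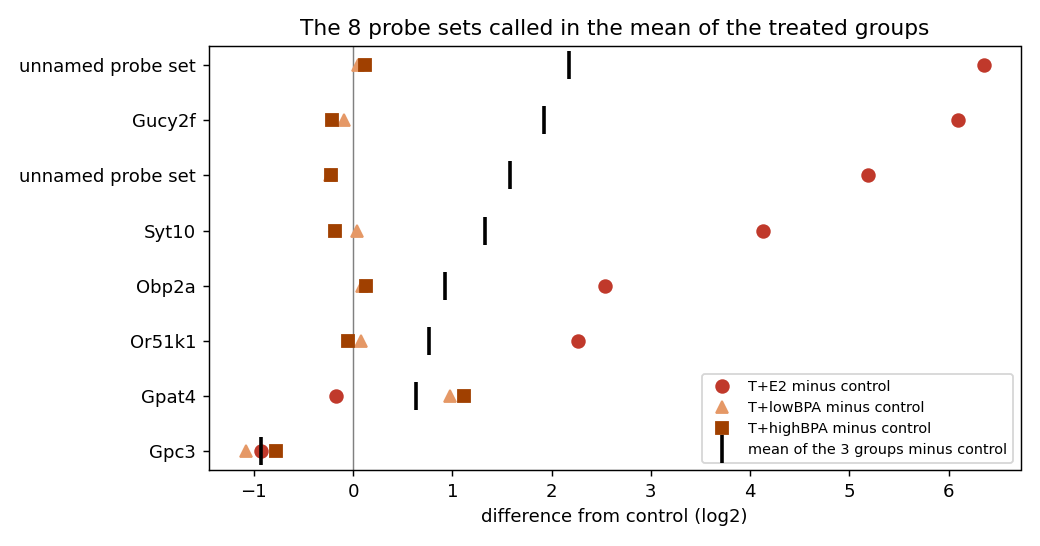
Difference from control (log2, horizontal axis) of the 8 called probe sets in T+E2 (circles), T+lowBPA (triangles) and T+highBPA (squares), with the mean of the 3 groups as a black bar. All 3 group symbols lie below 0 for Gpc3 alone, between -1.08 and -0.78.

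A count that does not rest on the mean alone asks for separation of the arrays. All 10 treated arrays lay above the 4 controls in 23 probe sets (0.129%), of which 19 had a symbol, and below them in 17 (0.0955%), of which 16 had one. Of these 40 probe sets, 20 also had an unadjusted p below 0.05 in each of the 3 groups and 1, Ndufa1, differed among the treated groups. Gpc3 alone of the 40 passed the adjusted test in the mean. A random order of the arrays would also separate some probe sets, and that share was not worked out. The counts of separated probe sets are therefore a description. The genes named in the next paragraphs were chosen after their values were seen, and their differences are given as values.

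Among the genes above control, Svs3a, which encodes a protein secreted into seminal fluid, had 6.31, 6.58, 6.31 and 6.90 in T+E2, 6.49, 6.44 and 6.64 in T+lowBPA and 6.32, 6.37 and 6.69 in T+highBPA, against 5.68, 6.13, 5.83 and 5.88 in controls. No treated array overlapped a control. Its group differences of 0.65, 0.65 and 0.58 were of nearly equal size, and the mean of 0.63 had an adjusted p of 0.076. Svs3a is on the list of seminal vesicle and coagulating gland markers. Of 10 measured members, 0 were called, and 2 were higher and 0 lower at an unadjusted p of 0.05. Over all probe sets those shares were 3.54% and 2.84%. The list's median was 0.08, and the part of that tissue in the difference of Svs3a was not tested. Rab27b, a small GTPase that docks secretory vesicles at the plasma membrane, had 9.27, 9.45, 9.68 and 9.41 in T+E2, 9.44, 9.32 and 9.33 in T+lowBPA and 9.68, 9.30 and 9.16 in T+highBPA, against 8.89, 9.0, 8.99 and 8.78 in controls (mean difference 0.48, adjusted p 0.104). Its close relative Rab27a lay on the other side. Rab27a had values of 5.80 to 6.46 in treated rats, against 6.54 to 7.02 in controls (-0.49, adjusted p 0.21).

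Ndufa1, a subunit of respiratory complex I, was above control by 1.24 in T+E2, 0.41 in T+lowBPA and 0.60 in T+highBPA, with an adjusted p of 0.162 for the mean of 0.75. The other named genes above control had mean differences of 0.18 to 0.51, among them Dach2, a transcription cofactor, at 0.51, S100a10, the partner protein of annexin A2, at 0.35, and the mitochondrial ribosomal proteins Mrpl38 and Mrpl14 at 0.19 and 0.18.

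Below control, Adh7 came next to Gpc3 in size. Adh7 encodes an alcohol dehydrogenase that oxidises ethanol and retinol. It had 4.73, 4.59, 4.50 and 4.89 in T+E2, 4.67, 4.77 and 4.88 in T+lowBPA and 4.34, 4.61 and 4.71 in T+highBPA, against 5.07, 5.42, 5.93 and 5.13 in controls. The mean difference was -0.72 with an adjusted p of 0.0841, and -0.81 with 0.0367 without control replicate 4. The remaining named genes below control had mean differences of -0.12 to -0.49, among them Ctnnd2, a catenin of cell junctions, at -0.29 and the transcription factor Nfic at -0.25.

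**Figure D3:**
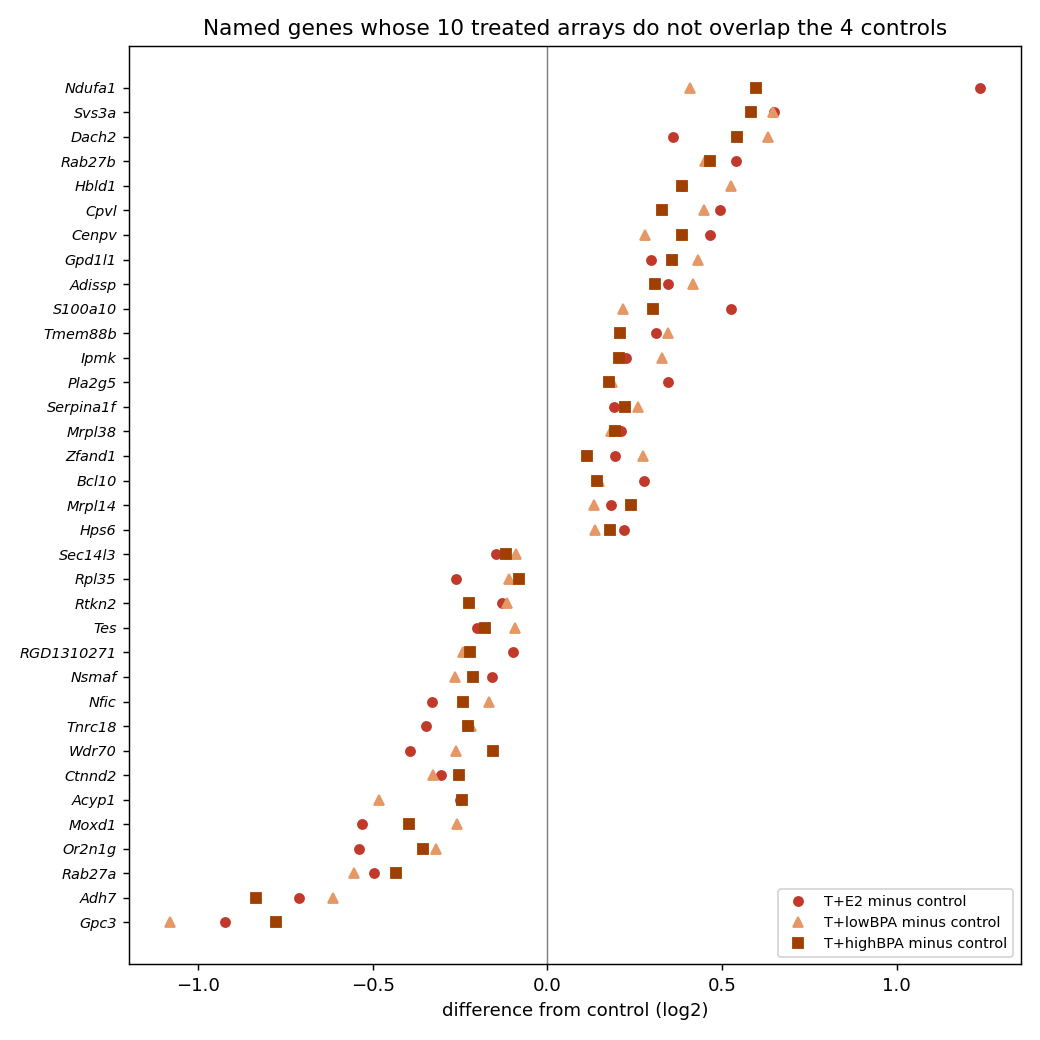
Difference from control (log2, horizontal axis) of the genes with a symbol whose treated and control arrays did not overlap, in T+E2 (circles), T+lowBPA (triangles) and T+highBPA (squares). The 19 genes above control are at the top and the 16 below at the bottom. Gpc3 has the lowest symbols in T+E2 and T+lowBPA, and Adh7 in T+highBPA (-0.83, where Gpc3 is at -0.78).

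Another count took each group on its own: 30 probe sets were higher (0.169%) and 44 lower (0.247%) at an unadjusted p of 0.05 in T+E2, T+lowBPA and T+highBPA alike. The 3 group comparisons share the 4 controls, so these counts are a description. The largest differences in this set were below control. Fam115e had a mean difference of -2.73 (adjusted p 0.104), Gsdma, a pore-forming gasdermin known from skin, -1.89 (0.14), and Fcgbpl1, named for its likeness to an IgG Fc-binding protein of mucus, -1.87 (0.0568). Fam115e had 8.19, 5.9, 6.04 and 8.89 in T+E2, against 7.49 to 9.52 in controls. Its group differences were unequal, at -1.42 in T+E2, -3.12 in T+lowBPA and -3.64 in T+highBPA. Gsdma had 6.63, 5.08, 5.61 and 6.85 in T+E2, against 6.45 to 8.55 in controls. In both genes, T+E2 replicates 1 and 4 lay above the lowest control. For Fcgbpl1 the values were 8.86, 7.41, 8.09 and 9.33 in T+E2, 7.0, 7.78 and 8.06 in T+lowBPA and 7.58, 7.21 and 8.07 in T+highBPA, against 8.91 to 10.34 in the 4 controls. T+E2 replicate 4 alone lay above the lowest control.

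Members of the intracellular serpin family, which inhibit proteases, were in the lower set. Serpinb11 had 4.46 to 5.54 in treated rats, with control values of 5.11, 6.08, 6.02 and 6.03 (-0.92, adjusted p 0.0568). Serpinb8 had a mean difference of -0.91 (0.21) and Serpinb7 of -0.84 (0.412). Upk1b, a uroplakin of the urothelial surface, was at -1.20 (0.399) and at -0.77 without control replicate 3. Of 11 measured urothelial markers, 0 were called, and 0 were higher and 3 lower at an unadjusted p of 0.05. Over all probe sets those shares were 3.54% and 2.84%. The list's median was -0.01, with 2 members below control in all groups (15.8% over all probe sets) and 1 above (16.3%). Havcr1, a phosphatidylserine receptor known from injured kidney, was at -1.24 (0.151), and Chrm2, a muscarinic receptor, at -0.90 (0.204).

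Above control in each group were Ccl11, a chemokine that attracts eosinophils, at 0.81 (adjusted p 0.452), Ccdc80, a secreted matrix protein, at 0.78 (0.348) and Has2, a hyaluronan synthase, at 0.74 (0.169). Nek7, a kinase of mitosis and of the inflammasome, was at 0.68 (0.0647), and Kif21a, a kinesin motor, at 0.52 (0.0535). Kif21a had 8.90, 8.74, 9.10 and 9.06 in T+E2, 8.78, 8.91 and 8.80 in T+lowBPA and 8.66, 8.63 and 8.47 in T+highBPA, against 8.07, 8.24, 8.28 and 8.50 in controls, where replicate 4 alone reached the treated range. In all 3 of Ccl11, Ccdc80 and Has2, control replicate 4 was the lowest of the controls, and without it the mean differences of Ccl11 and Ccdc80 were 0.52 and 0.56.

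Androgen-responsive genes lay on both sides of control. Of 26 measured members of that list, 0 were called, 4 were higher and 1 lower at an unadjusted p of 0.05 (3.54% and 2.84% over all probe sets), and the median difference was 0.03, against 0.00 over all probe sets. Hpgd, which degrades prostaglandins, had 9.0, 9.32, 9.55 and 9.79 in T+E2, 8.74, 8.78 and 9.07 in T+lowBPA and 8.54, 8.69 and 8.88 in T+highBPA, against 8.06, 8.52, 8.69 and 7.43 in controls (0.82, adjusted p 0.21). Only T+highBPA overlapped the controls. Tgm4, the transglutaminase that clots semen, lay the other way and varied widely, with 11.34, 8.63, 8.32 and 11.96 in T+E2, 7.20, 8.66 and 10.07 in T+lowBPA and 6.84, 7.75 and 10.26 in T+highBPA, against 11.85, 12.18, 11.17 and 12.09 in controls (-2.83, adjusted p 0.293). Only T+E2 replicates 1 and 4 overlapped the controls. Pbsn was 0.34 above control (adjusted p 0.485) and 0.21 without control replicate 4.

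Of the other genes followed for their role in steroid action, Fkbp5, a co-chaperone of steroid receptors, was at 0.37 (adjusted p 0.688) and Tmprss2, a membrane serine protease, at 0.20 (0.912), with 1.04 in T+E2, -0.40 in T+lowBPA and -0.04 in T+highBPA. Esr1 was at -0.03 (0.986), Esr2 at 0.12 (0.965), the progesterone receptor Pgr at -0.19 (0.907) and the prolactin receptor Prlr at 0.85 (0.795). Without control replicate 4 Prlr was at 1.39 and Pgr at -0.35, and without control replicate 3 Pgr was at -0.06. Prlr was called (1.11, adjusted p 0.0103) without the 3 arrays highest in ventral prostate genes. Hnf4a, a transcription factor of liver and gut epithelium, was at 0.04 (0.991) and the proliferation marker Mki67 at 0.09 (0.988). No one of these 8 was called. Of 23 measured estrogen-responsive genes, 0 were called, 2 were higher and 1 lower at an unadjusted p of 0.05 (3.54% and 2.84% over all probe sets), and the median was 0.00. Of 23 cell cycle genes, 0 were called, 0 were past an unadjusted p of 0.05 (6.38% over all probe sets), and the median was 0.01.

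Gpc3 alone passed every criterion, Svs3a is a seminal vesicle marker with nearly equal group differences, and Pbsn is the standard androgen-regulated gene. Promoter sequences are shown for Gpc3, Svs3a and Pbsn. They are the 250 bases before the annotated start of each gene in RefSeq, build GRCr8, at chrX:137157599-137157848 on the minus strand for Gpc3, chr3:173380835-173381084 on the plus strand for Svs3a and chrX:45807984-45808233 on the minus strand for Pbsn. Capitals mark the letters AGAACA or, on the other strand, TGTTCT, the core that androgen response elements hold in repeat.
Gpc3: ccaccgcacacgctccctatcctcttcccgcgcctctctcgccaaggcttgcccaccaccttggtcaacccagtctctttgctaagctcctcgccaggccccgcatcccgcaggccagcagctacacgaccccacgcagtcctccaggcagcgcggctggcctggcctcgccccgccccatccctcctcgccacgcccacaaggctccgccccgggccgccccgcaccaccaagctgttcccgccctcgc
Svs3a: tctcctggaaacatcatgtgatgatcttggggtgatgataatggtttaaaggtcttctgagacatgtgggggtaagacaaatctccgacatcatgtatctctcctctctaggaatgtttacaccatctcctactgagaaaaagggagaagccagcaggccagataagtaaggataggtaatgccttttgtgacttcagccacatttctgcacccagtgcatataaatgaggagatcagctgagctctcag
Pbsn: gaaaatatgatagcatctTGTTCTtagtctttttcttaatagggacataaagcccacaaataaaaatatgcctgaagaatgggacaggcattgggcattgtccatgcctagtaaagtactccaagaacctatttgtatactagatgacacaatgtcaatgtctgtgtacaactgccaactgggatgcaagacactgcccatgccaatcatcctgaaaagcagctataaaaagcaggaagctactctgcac
The core was found once in Pbsn, at -232 from the start, and in neither other window. Among 13160 measured genes with a promoter in the table, 12.9% hold it. Of the named genes with separated arrays, 2 of 15 above control and 0 of 13 below with a promoter in the table hold it. The full palindromes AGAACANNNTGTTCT and GGTCANNNTGACC, searched on both strands, were in none of these windows. A match is a description of letters, and a window without one says nothing about regulation by androgens.

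Genes of the other pathways were read against the same background of 3.54% higher and 2.84% lower at an unadjusted p of 0.05. Of 32 measured glycerolipid synthesis genes, 1 was called (Gpat4) and 5 were higher at an unadjusted p of 0.05. Gpd1l1, a glycerol phosphate dehydrogenase by its name, was above control by 0.30, 0.43 and 0.36 in the 3 groups. Gk5, a glycerol kinase family member, and Pi4k2b, a phosphatidylinositol kinase, were above control by 1.17 and 0.60 in T+lowBPA and 0.75 and 0.30 in T+highBPA, and at -0.35 and -0.18 in T+E2. Of 33 measured FGF, IGF and TGF-beta genes, Gpc3 alone was called. Fgfr2, a receptor of fibroblast growth factors, was at -0.31, -0.23 and -0.30 (mean -0.28, adjusted p 0.452), whereas Hgf, hepatocyte growth factor, was at 2.19 in T+E2 and 0.02 and -0.17 in the bisphenol A groups. Interferon response genes had 0 of 27 called and 7 higher at an unadjusted p of 0.05, with a median of 0.22. Among them Oas1a, an antiviral oligoadenylate synthetase, was at 0.43, 0.25 and 0.77 in T+E2, T+lowBPA and T+highBPA.

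Muscle and basal markers tended to lie below control, without any call. In bulk tissue, fewer cells of a type and less RNA per cell cannot be told apart. Of 19 smooth muscle markers, 0 were called, 9 were lower at an unadjusted p of 0.05 (2.84% over all probe sets), and 15 had all 3 group means below control (15.8% over all probe sets). The median differences were -0.50 in T+E2, -0.20 in T+lowBPA and -0.22 in T+highBPA. Myh11, the smooth muscle myosin heavy chain, was at -0.46 (adjusted p 0.463) and Synpo2, an actin-binding protein of muscle, at -0.53 (0.23). The list had a mean level between 8.24 and 8.62 in T+E2, between 8.54 and 8.89 in T+lowBPA and between 8.62 and 8.75 in T+highBPA. Controls had 8.57, 9.18, 9.07 and 8.79, so the groups overlapped. Only control replicates 2 and 3 lay above all treated arrays. Members of a list vary together, and list counts without either of these controls were not made.

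Basal epithelial markers had 0 of 14 called, 5 lower at an unadjusted p of 0.05 and 10 with all group means below control. Tp63, the transcription factor that marks basal cells, had 6.97, 6.91, 7.09 and 6.89 in T+E2, 7.11, 7.0 and 7.60 in T+lowBPA and 7.09, 7.26 and 7.08 in T+highBPA, against 7.29, 7.76, 7.91 and 7.53 in controls (-0.51, adjusted p 0.21). T+lowBPA replicate 3 was the one treated array within the control range. Krt15, a basal keratin, was at -1.13 (0.421). The list's mean level was 6.61 to 6.78 in treated rats and 6.79, 7.01, 7.10 and 6.74 in controls, with replicates 2 and 3 again the highest.

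Markers of tissue around or beside the lobe varied between rats. Skeletal muscle markers had 0 of 19 called and 0 at an unadjusted p of 0.05, yet 18 had all group means below control and the median was -0.96. Their mean level was 5.99 to 9.46 in treated rats and 6.75, 9.32, 8.98 and 8.14 in controls. Ventral prostate markers had a mean level of 5.70, 9.04, 6.53 and 5.39 in T+E2, 5.98, 6.08 and 5.90 in T+lowBPA and 8.20, 9.09 and 7.76 in T+highBPA, with 5.20, 5.17, 4.94 and 9.09 in controls. All 10 treated arrays lay above control replicates 1 to 3. T+highBPA was highest as a group, although T+E2 replicate 2 and control replicate 4 lay within its range. The F test among the treated groups called 0 of the 10 measured genes. Over the 10 measured genes of the list, 0 were called and 1 was higher at an unadjusted p of 0.05, and the median difference was 1.36, with 0.40 in T+E2, -0.05 in T+lowBPA and 3.05 in T+highBPA. Without control replicate 4 the median was 2.77, with 6 higher at an unadjusted p of 0.05, 1 called and 8 with all group means above control (20.1% over all probe sets). The part of either tissue in the other results was not tested. Gpc3 was called with either marker mean as a covariate and without the 3 arrays highest in ventral prostate genes. The ventral prostate mean was itself high in T+highBPA and low in control replicates 1 to 3. These fits therefore cannot tell tissue from treatment, and the part of either tissue in Gpc3 was not tested.

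**Figure D4:**
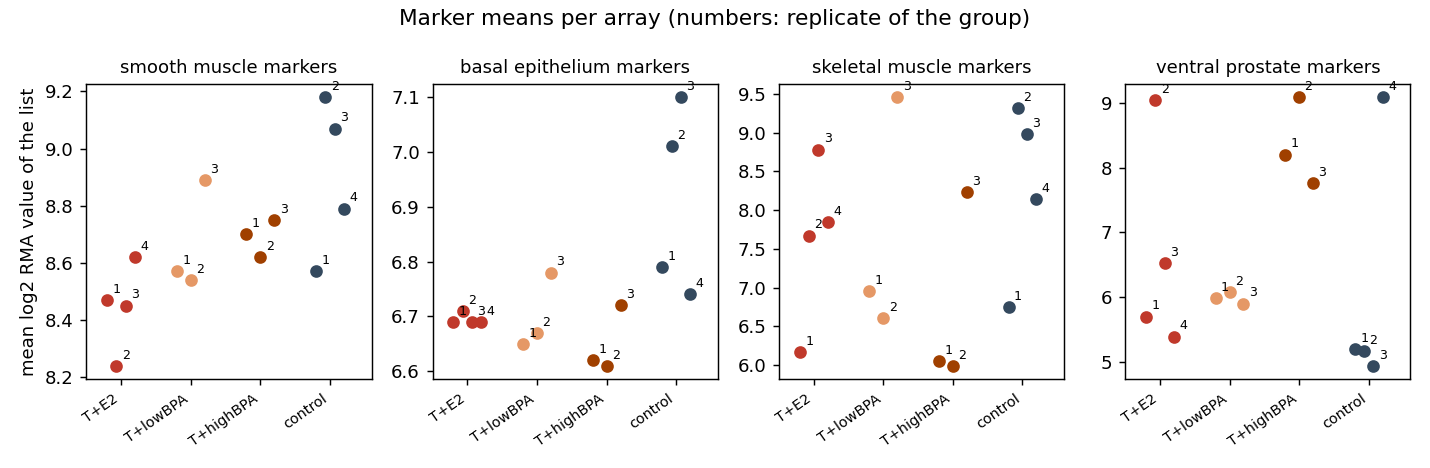
Mean log2 RMA value of 4 marker lists on each array, by group, with the replicate number beside each point (vertical axes differ). Control replicate 4 lies at 9.09 in the ventral prostate panel, level with T+E2 replicate 2 and T+highBPA replicate 2, and the other 3 controls lie at 4.94 to 5.20.

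Without control replicate 4 the counts were larger. Of 17802 probe sets, 42 were called (0.236%), 20 higher (0.112%) and 22 lower (0.124%), and all 8 of the first count were among them. All group means were on one side of control in 36, 14 higher (0.0786%) and 22 lower (0.124%), and 31 of the 36 had a symbol. The treated arrays were all above the 3 remaining controls in 111 probe sets (0.624%) and all below in 129 (0.725%), and 52 were higher (0.292%) and 155 lower (0.871%) at an unadjusted p of 0.05 in each group. Separation from 3 controls asks less than separation from 4, and here too the share for a random order was not worked out. A difference among the treated groups was called in 2021 (11.4%). Against the 3 controls, T+E2 had 624 called probe sets (3.51%), T+lowBPA 16 (0.0899%) and T+highBPA 12 (0.0674%). At an unadjusted p of 0.05 the mean had 1621 (9.11%), 805 higher (4.52%) and 816 lower (4.58%). This alternative was chosen with the array's position known, and the genes named from it were chosen after their values were seen. In all 31, control replicate 4 lay on the treated side of the other 3 controls, and in 20 it lay at least as far out as the treated mean. Leaving out an array adds calls mostly where that array lay on the treated side. The position of control replicate 4 in these genes therefore follows in part from how they were chosen.

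Msln, Itgb6, Slc34a2, Stra6 and Aldh1a3 were among the genes called lower in that fit. Msln, the membrane protein mesothelin, was at -0.95 (adjusted p 0.00175), Itgb6, an integrin of epithelia, at -0.71 (0.00678), and Slc34a2, a sodium phosphate transporter, at -1.16 (0.00508). Stra6, a retinol receptor, was at -0.83 (0.0265) and Aldh1a3, which makes retinoic acid, at -0.68 (0.0232). With all controls the same differences were -0.59, -0.32, -0.78, -0.58 and -0.36, and none was called. Among those higher were Pcdh20, a protocadherin, at 1.79 (0.00175), Wfdc3, a secreted protein with a protease inhibitor fold, at 0.85 (0.00508), and Scgb2a1, a secretoglobin on the ventral prostate list, at 2.35 (0.00734). With all controls these were at 1.36 (0.184), 0.42 (0.873) and 1.48 (0.612), and none was called.

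In the gene lists, without control replicate 4, 7 of 26 androgen-responsive genes were higher and 2 lower at an unadjusted p of 0.05. Over all probe sets the shares in that fit were 4.52% higher and 4.58% lower. Of 23 estrogen-responsive genes 2 were higher and 3 lower, and of 32 glycerolipid genes 5 were higher and 1 lower. Of 27 interferon response genes 8 were higher and 2 lower. Of 33 FGF, IGF and TGF-beta genes 1 was higher and 9 lower, against 2 higher and 4 lower with all controls. Smooth muscle markers had 8 lower and basal markers 7, and 15 and 11 of them had all group means below control (17.4% over all probe sets). Control replicates 2 and 3, the highest in both lists, remained in that fit. Cell cycle genes and skeletal muscle markers again had 0 past that threshold. In these lists Gpat4 was again the one gene called higher and Gpc3 the one called lower.

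For Msln the values were 7.56, 7.62, 7.67 and 7.53 in T+E2, 8.06, 7.78 and 7.90 in T+lowBPA and 8.33, 7.77 and 8.29 in T+highBPA, against 8.72, 8.92 and 8.85 in control replicates 1 to 3 and 7.38 in control replicate 4, the lowest of all 14. The same probe set was therefore separated with 3 controls and not with 4.

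**Figure D5:**
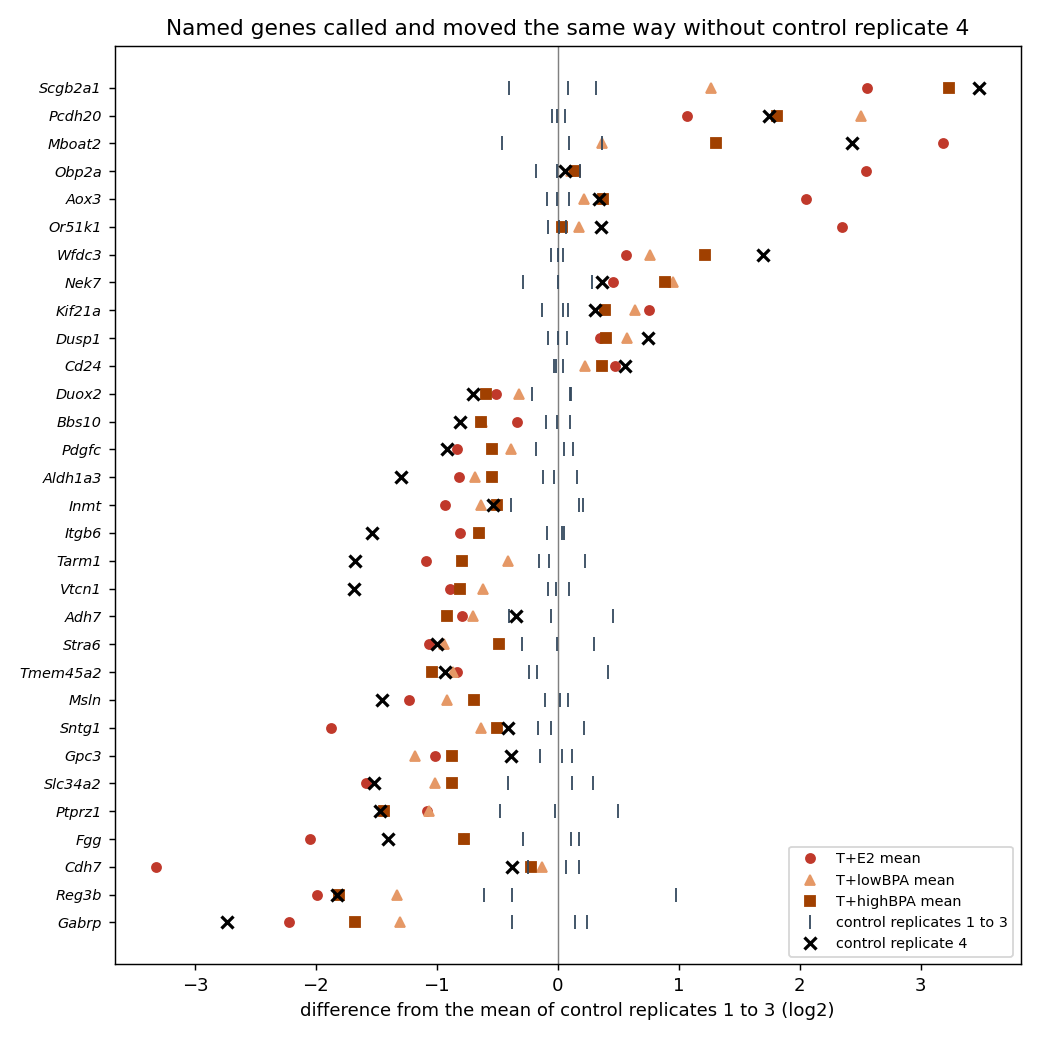
The 31 named genes called and moved the same way without control replicate 4: means of T+E2 (circles), T+lowBPA (triangles) and T+highBPA (squares), control replicates 1 to 3 (bars) and control replicate 4 (crosses), as differences from the mean of controls 1 to 3 (log2, horizontal axis). The cross lies on the side of the treated means in every gene, which follows in part from how the genes were chosen.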

How the data were processed

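RNA of the lateral prostate of 14 rats was measured on Affymetrix arrays, 1 array per rat. Per the labels' protocols, total RNA was isolated with TRIzol and amplified and labelled with a whole-transcriptome kit. The authors deposited RMA values, per the submitters' processing notes, and these are log2 values. By its method, RMA subtracts background, brings the arrays to 1 distribution and combines probes into 1 value per probe set. Neither its version nor a genome build is stated in what was used here. Arrays carry no read depth, and their number limits the precision. Of 17802 probe sets, 16134 carried 1 gene symbol and 1668 carried none, and 3138 symbols were updated through the RefSeq gene table of GRCr8, which held 16008 of the gene numbers.

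Every probe set was fitted with limma 3.58.1 in R 4.3.3, with 1 coefficient per group and no filter. Tests were two-sided, with Benjamini-Hochberg adjustment over 17802 probe sets, and called means an adjusted p below 0.05. Every adjusted p in the text is limma's. A p-value here sets a difference between groups only against the spread among these rats, as limma estimates it. The fit was tested on simulated data: over 17802 genes the mean of the treated groups minus control recovered 83.8% of 99 genes changed 1.5-fold and 96% of 101 changed 2-fold. Recovered here means called and moved the same way in all 3 groups. The F test recovered 57.1% of 98 genes changed 1.5-fold in T+E2 only and 96.1% of 102 changed 2-fold, so it can miss smaller differences. The simulated noise was independent, with limma's moderated spread and no outlying array.

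The members and the 37 gene lists (21 of function, 16 of markers) were chosen with earlier results of these data known, and lists were counted, not tested. Genes named by rule were those called, moved the same way and separated between treated and control arrays, or, where none passed in a direction, the 5 smallest p values, leaving out serial symbols; up to 4 members with the smallest p of each list described; genes followed for their role; and those most different among the treated groups. Others are said to have been chosen after their values were seen. Alternatives covered the normalization, filter, threshold, array weights, a replicate block, marker covariates and leaving out each array or group. Counts of separated probe sets, of single groups and in lists without control replicate 4 were added after seeing the data.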

Additional observations from a re-analysis of the deposited data

Results flagged for a closer look

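Among the genes and marker means of the report, 4 of 138 groups of 4 arrays had 1 array far from the others by Dixon's ratio, and chance alone flags about 1 in 20. The mean of the ventral prostate markers in controls had a ratio of 0.939 and Prlr in controls one of 0.861, both for control replicate 4 as the highest array. Serpinb11 in controls had 0.933, for control replicate 1 as the lowest. Without that array its mean difference was -1.16 with an adjusted p of 0.000477. Obp2a in T+E2 had 0.883, for replicate 2 as the lowest.

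The difference from control was not of 1 size in the treated groups for 12 of 53 genes followed through all settings, by limma's moderated F test. Over all probe sets that test called 6.64%. Some of the 53 were chosen for a small p in this same test and others for moving alike in every group. Their share is therefore a description. The adjusted p was 6.48e-13 for Gucy2f, 2.35e-09 for Syt10, 1.44e-08 for Taar1, 5.85e-07 for each of Gng12, Ugt2b10 and Akr1b10, and 1.58e-06 for Obp2a. It was 4.74e-05 for Gpat4, 0.000142 for Pi4k2b, 0.000143 for Gk5, 0.00183 for Tmprss2 and 0.0128 for Esr2. Outside these 53 genes it was 4.94e-08 for Or51k1 and 0.0455 for Ndufa1. Taar1, a trace amine receptor, was at 3.52 in T+E2, -0.35 in T+lowBPA and -0.54 in T+highBPA. Akr1b10, an aldo-keto reductase, was at 2.12, -0.48 and -0.51 in the same order. Ugt2b10, a glucuronosyltransferase, lay the other way, at -1.61, 1.02 and 0.72, and its mean over the groups was 0.04. Gng12, a G protein subunit, was at 1.27, 0.03 and -0.06, and Esr2 at -0.58, 0.40 and 0.56.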

How the results depend on the processing

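The count of 8 called probe sets was 16 after quantile normalization, 25 with the treated arrays pooled, 19 with an intensity trend and robust fit, 133 with array weights, 110 and 15 with the ventral prostate or skeletal muscle mean as a covariate, and 73 without the 3 arrays highest in ventral prostate genes. It was 5 and 27 at adjusted p thresholds of 0.01 and 0.10. With 1 treated group left out of the mean it was 14 (T+E2), 47 (T+lowBPA) and 51 (T+highBPA). The 3 called and moved the same way were 7, 11, 9, 111, 89, 9 and 64 in the first 7 of these settings, taken in the same order, and 1 and 15 at the other thresholds. The 1182 that differed among the treated groups were 2326 with array weights, 411 at 0.01 and 2081 at 0.10. The causes were not tested. With 1 array left out, the 3 counts ran from 6 to 42, from 0 to 36 and from 684 to 2021, each highest without control replicate 4. The count moved the same way was 7 and 5 without T+E2 replicates 1 and 2, 0 without T+lowBPA replicate 3 and 1 without T+highBPA replicate 3. The called count was 18 without T+E2 replicate 1, and the F count was 684 to 779 without T+E2 replicate 2 or 4 or any 1 T+highBPA array. Replicate numbers were not taken as pairs in the main fit. Same-numbered rats nevertheless deviated together at r over 0.1 in 14 of 19 pairs (-0.451 to 0.429, mean 0.11, against -0.037 for other numbers). The main fit leaves out any such shared deviation. A replicate block gave 8, 3 and 1347.

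Of the values of single genes, 34 changed sign, 74 gained a call and 30 lost one, and 1390 did neither. Without T+E2 in the mean, Gucy2f was at -0.153, Syt10 at -0.069, Gng12 at -0.0181, Esr1 at 0.00871, Mki67 at -0.0592, Tmprss2 at -0.218, Taar1 at -0.447 and Akr1b10 at -0.496. Ugt2b10 was at -0.121 with pooled arrays, -0.0142 with array weights, -0.00105 with the replicate block, -0.0334 with the skeletal muscle covariate, -0.444 and -0.295 without T+lowBPA or T+highBPA in the mean, and -0.0793 and -0.00605 without control replicate 2 or T+lowBPA replicate 1. Hnf4a was at -0.000104 with array weights, -0.00943 with the block, -0.111 without the 3 arrays, -0.0605 with the skeletal muscle covariate, -0.053 without T+lowBPA in the mean, and -0.0255 and -0.123 without control replicates 2 and 4. Mki67 was at -0.0642, -0.0491, -0.213 and -0.018 in the first 4 of those settings and -0.254 without control replicate 4. Esr2 was at -0.0301 with the ventral prostate covariate, -0.0115 and -0.0934 without T+lowBPA or T+highBPA in the mean and -0.0293 without control replicate 1. Esr1 was at 0.0185 without the 3 arrays and 0.00547 without control replicate 4. With 1 array left out the highest values were 0.343 for Esr2, 0.262 for Hnf4a, 0.41 for Mki67 and 0.132 for Ugt2b10, and the lowest for Esr1 was -0.0522.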

Other observations

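Markers of connective tissue and vessels were mostly above control in all 3 treated groups, with 0 called. All group means were above control in 15 of 26 extracellular matrix genes, 9 of 11 endothelial markers and 9 of 13 fibroblast markers, against 16.3% of all probe sets, and at an unadjusted p of 0.05 there were 1, 2 and 0 higher. The median differences were 0.14, 0.19 and 0.15. Lox, which cross-links collagen, was at 0.31 in T+E2, 0.71 in T+lowBPA and 0.14 in T+highBPA, and Col3a1, a fibrillar collagen, at 0.37, 0.38 and 0.17. Without control replicate 4 the 3 medians were 0.02, 0.03 and -0.05, and 7, 4 and 3 members had all group means above control (20.1% of all probe sets). The mean level of the fibroblast markers was 8.31 to 8.76 in treated rats, against 7.87 in that control and 8.35 to 8.78 in the others.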
